A study of Mus musculus with 12 samples.

Results

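The miR-378 family was followed across hearts of control and diabetic mice, with and without inhibition of monoamine oxidase (MAO). Its members were taken as every miRNA on the array whose systematic name is mmu-miR-378a-3p, mmu-miR-378a-5p, mmu-miR-378b, mmu-miR-378c or mmu-miR-378d, which gave 5 of the 1881 miRNAs on the array. All 5 were called detected on all 12 arrays and so belong to the 128 miRNAs that passed this filter. The hearts came from male C57BL6/J mice, labelled as 5 months old, with 3 mice in each of 4 groups and 1 array for each heart. Control mice (C) were not diabetic and received no pargyline, and C+P mice were controls given the MAO inhibitor pargyline at 50 mg/kg/day for 12 weeks. D mice were made diabetic with streptozotocin, a compound toxic to pancreatic β-cells, at 50 mg/kg/day on 5 days, and D+P mice received both streptozotocin and the same course of pargyline. RNA of whole heart muscle was profiled, so fewer cells of a type and less miRNA per cell cannot be told apart. Streptozotocin models the loss of β-cells in type 1 diabetes.

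MiRNAs are short RNAs that guide the Argonaute proteins to partly complementary mRNAs and lower the output of those mRNAs, and the seed, bases 2 to 8 of the mature RNA, contributes most to target choice. The miR-378a hairpin lies within Ppargc1b, the gene of PGC-1β, a coactivator of nuclear receptors that promotes mitochondrial biogenesis and fatty acid oxidation. The hairpin can yield a mature RNA from each arm, and the 3p arm is the abundant product in heart and skeletal muscle. MiR-378a is known for its links to mitochondrial energy metabolism and to growth of heart muscle cells. In the RefSeq annotation Mir378b overlaps Msi2, the gene of an RNA-binding protein, Mir378c overlaps Samd4, another gene of an RNA-binding protein, and the long non-coding RNA gene Gm52120, and Mir378d overlaps no other annotated gene.

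The mature sequences of the paralogs are shown because these 3 differ from one another by few bases. Of the 5 members miR-378b, miR-378c and miR-378d were matched to RefSeq (GRCm38.p6). No mature sequence was matched for miR-378a-3p and miR-378a-5p, so how like they are to these 3 is not shown here. Each sequence is written 5′ to 3′ with the seed in capitals.
miR-378b (chr11:88352839-88352858, plus strand): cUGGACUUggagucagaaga
miR-378c (chr14:46954905-46954925, minus strand): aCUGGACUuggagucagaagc
miR-378d (chr10:126710355-126710376, minus strand): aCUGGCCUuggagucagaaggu
MiR-378b aligns to miR-378c with an offset of 1 base, which moves its seed by 1 base, so that the seeds of miR-378b (UGGACUU) and miR-378c (CUGGACU) differ as words although both miRNAs share a run of 19 bases. Positions below are counted from 1 at the 5′ end of the first miRNA named. Along the aligned bases miR-378b and miR-378c differ by A20C and were identical at 19 of 20 positions. MiR-378c and miR-378d differ by A6C, inside the seed, and by C21G at the end, and were identical at 19 of 21 positions. MiR-378b and miR-378d differ by A5C and A20G, with 18 of 20 positions identical. Probe sequences were not used here, and how far the signal of one member includes RNA of another was not tested.

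The arrays differed in brightness before any group effect could be read. Summed over its detected miRNAs, a C array gave a signal of 27107 to 35028 and an array of another group 39661 to 89040, with 144 to 163 miRNAs detected in C and 165 to 253 elsewhere. The hearts without pargyline shared a slide and the pargyline-treated hearts were on the other, so that pargyline and slide cannot be told apart in D+P against D or in C+P against C. Non-diabetic hearts were in one array row and diabetic hearts in the other row of both slides, so that diabetes and array row cannot be told apart either. The tissue label was borne out by the arrays, since all 5 heart muscle markers were detected on every array and all 5 markers of other tissues were undetected on every array. RNA extraction is described in the sample records for macrophages, while the tissue is given there as heart muscle. The leukocyte list was low, with 2 of 5 markers detected on all arrays and a share of the summed signal of 0.0450 to 0.0738% for C hearts, 0.135 to 0.165% for C+P, 0.0799 to 0.102% for D and 0.0262 to 0.104% for D+P. The markers of endothelium (1 of 2 detected on all arrays) took 1.27 to 1.31% in C, 1.68 to 2.20% over C+P and D and 0.824 to 1.76% in D+P, and those of fibroblasts (2 of 3) took 0.0888 to 0.106%, 0.128 to 0.184% and 0.0744 to 0.149%. Smooth muscle markers (2 of 2) took 0.136 to 0.146% in C and 0.157 to 0.222% elsewhere, and red cell markers (3 of 3 on the array) 0.922 to 1.88% over all hearts. Markers of other cell types thus took more of the signal in C+P and D than in C, red cells excepted, and their part in the results was not tested.

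Before normalization, every member gave a lower signal in each C heart than in any heart of the other groups. The signal of miR-378a-3p, the main arm of the Ppargc1b-hosted hairpin, was 185, 172 and 201 in the C hearts, 209, 220 and 301 in C+P, 244, 215 and 232 in D, and 230, 318 and 275 in D+P, for replicates 1 to 3. The C hearts were the lowest and the D+P hearts reached the highest values, with C+P, D and D+P overlapping. MiR-378a-5p, the other arm of this hairpin, gave 19.4, 16.2 and 19.5 in C, 30.8, 30.4 and 45.7 in C+P, 50.8, 43.5 and 37.5 in D, and 19.6, 35.9 and 45.0 in D+P. Its D hearts were the brightest on average, and D+P replicate 1 was close to the C hearts. This order held for 5 of 5 members, against 19.5% of the 128 miRNAs for which every C array was below every other array.

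The paralogs showed the same low C values. MiR-378b gave 210, 186 and 200 in C, 272, 261 and 437 in C+P, 267, 268 and 254 in D, and 276, 379 and 371 in D+P. MiR-378d gave 282, 243 and 272 in C, 364, 359 and 574 in C+P, 391, 369 and 347 in D, and 360, 543 and 504 in D+P. For both, the C hearts were lowest and C+P replicate 3 was the highest single array. MiR-378c gave 44.5, 38.8 and 45.0 in C, 77.0, 70.3 and 114 in C+P, 55.7, 55.5 and 55.2 in D, and 74.6, 100 and 98.0 in D+P. Its D hearts lay between the C hearts and both pargyline groups without overlap. Levels of different members are not compared here, because each probe has its own response.

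**Figure D1:**
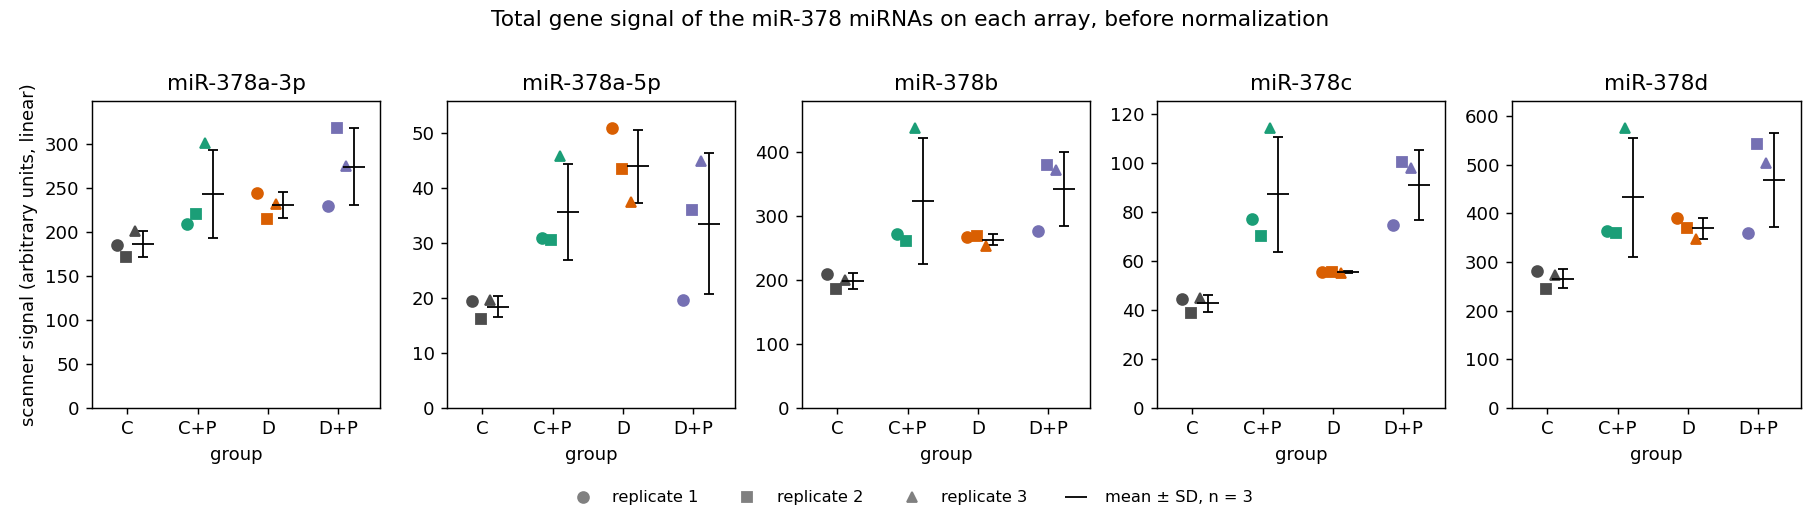
Scanner signal (arbitrary units, linear axis from 0) of each miR-378 miRNA on each of the 12 arrays by group, with the mean and SD of 3 arrays beside the points. Every C point lies below every point of the other groups, and for miR-378a-5p D+P replicate 1 (19.6) lies next to the highest C array (19.5).

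The higher signals of the other groups were part of a shift of the whole array. Without normalization the median log2 change of the 128 miRNAs was 0.77 in D against C and 1.15 in C+P against C, whereas that of miR-378a-3p was 0.31 and 0.37. MiR-378b (0.41 and 0.66), miR-378c (0.38 and 1.00) and miR-378d (0.48 and 0.67) also moved by less than this median. MiR-378a-5p moved by 1.25 in D against C, more than the median, and by 0.94 in C+P against C, less than it. After cyclic loess, which removes such shifts by assuming that most miRNAs of a given brightness do not change, a log2 change states how a miRNA moved relative to the others on the array. The direction of several changes given next therefore depends on normalizing at all, and turned in the unnormalized values.

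To see how diabetes changed the family without pargyline, D was set against C. MiR-378a-3p fell by 0.53 on the normalized log2 scale (SE 0.19, adjusted p = 0.0349), miR-378b by 0.47 (SE 0.17, adjusted p = 0.0328) and miR-378d by 0.49 (SE 0.16, adjusted p = 0.0274; limma, 3 against 3 arrays). MiR-378a-5p rose by 0.57 (SE 0.14, adjusted p = 0.00811), so that the arms of one hairpin moved in opposite directions after normalization, while both were higher in D without it. MiR-378c did not pass the test, with a change of -0.31 (SE 0.15, 95% interval -0.65 to 0.02, adjusted p = 0.105). The normalized log2 level of miR-378a-3p was 8.10, 8.20 and 8.19 in the C hearts and 7.50, 7.50 and 7.90 in the D hearts. The groups did not overlap for any of the 5 members, with miR-378a-5p at 4.73, 4.73 and 4.82 in C against 5.40, 5.36 and 5.25 in D. Thus 4 members passed, beside 50% of all 128 miRNAs. Of these 4 members 1 rose and 3 fell, where 24.2% of all miRNAs were called higher and 25.8% lower. Of all miRNAs 35.2% were higher and 34.4% lower without overlap. The change of miR-378a-5p kept its sign in 28 of 28 other settings and passed the threshold in 24 of them. The falls of miR-378b, miR-378d and miR-378a-3p turned to rises of 0.41, 0.48 and 0.31 without normalization, and only 1 member passed when any one C array, D replicate 1 or D replicate 2 was left out. Of all 128 miRNAs 33 to 53 passed with one of these arrays left out, against 64 in the main fit.

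To see how pargyline changed the family in mice without diabetes, C+P was set against C, a comparison that also sets one slide against the other. MiR-378a-3p fell by 0.75 (SE 0.19, adjusted p = 0.0251), miR-378b by 0.50 (SE 0.17, adjusted p = 0.0368) and miR-378d by 0.58 (SE 0.16, adjusted p = 0.0260). The normalized log2 level of miR-378a-3p was 7.56, 7.46 and 7.23 in the C+P hearts, all below the C hearts. Neither miR-378a-5p, at -0.09 (95% interval -0.40 to 0.21, adjusted p = 0.572), nor miR-378c, at -0.08 (95% interval -0.41 to 0.26, adjusted p = 0.672), passed the test, and their arrays overlapped. Thus 3 members fell and none rose, where 36.7% of all miRNAs were called, 18% higher and 18.8% lower. The 3 members had no overlap between the groups, as had 38.3% of all miRNAs that were lower and 37.5% that were higher. Without normalization all 5 changes were positive, between 0.37 and 1.00, and 4 of them passed as higher, beside 96 of all 128 miRNAs. No member passed once C replicate 2, C replicate 3, C+P replicate 2 or C+P replicate 3 was left out, although 3 members had an unadjusted p under 0.05 each time in limma. Of all 128 miRNAs 3, 4, 4 and 3 passed with these arrays left out, against 47 in the main fit.

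In diabetic hearts, D+P was set against D to see what pargyline changed there. MiR-378b rose by 0.61 (SE 0.17, adjusted p = 0.0170), miR-378c by 0.78 (SE 0.15, adjusted p = 0.00999) and miR-378d by 0.66 (SE 0.16, adjusted p = 0.0133). MiR-378a-3p was higher by 0.46 (SE 0.19, 95% interval 0.04 to 0.87), which missed the threshold at an adjusted p of 0.0572. MiR-378a-5p fell by 0.47 (SE 0.14, adjusted p = 0.0216). The normalized log2 level of miR-378c was 5.49, 5.65 and 5.85 in the D hearts and 6.69, 6.41 and 6.23 in the D+P hearts, without overlap. For miR-378a-3p the D hearts reached 7.90 and the lowest D+P heart was at 7.71, so that the groups overlapped. Thus 3 members rose and 1 fell, where 53.9% of all miRNAs were called, 26.6% higher and 27.3% lower. These 4 members had no overlap, as had 25.8% of all miRNAs that were higher and 30.5% that were lower. Here too pargyline goes with the slide, and 1 member passed without D replicate 2, 2 passed without D replicate 1, and none passed in the authors' normalized values (limma, 4 members with an unadjusted p under 0.05). Of all 128 miRNAs 13, 26 and 3 passed in these settings, against 69 in the main fit.

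Among pargyline-treated hearts, D+P was set against C+P, within one slide. MiR-378a-3p rose by 0.68 (SE 0.19, adjusted p = 0.0418), miR-378b by 0.64 (SE 0.17, adjusted p = 0.0324), miR-378c by 0.54 (SE 0.15, adjusted p = 0.0440) and miR-378d by 0.75 (SE 0.16, adjusted p = 0.0180). MiR-378a-5p was at 0.20 (95% interval -0.11 to 0.50, adjusted p = 0.281) and did not pass. The normalized log2 level of miR-378d was 8.30, 8.12 and 8.10 in the C+P hearts and 9.23, 8.95 and 8.59 in the D+P hearts, and the 4 members that passed had no overlap between the groups. Thus 4 members rose and none fell, where 13.3% of all miRNAs were called, 5.47% higher and 7.81% lower, and where 21.1% were higher and 21.9% lower without overlap. Of the 7 miRNAs called higher in this comparison 4 were of the miR-378 family, and the others were miR-30a-5p, miR-30d-5p and miR-486a-5p. Normalized levels of the 4 family members had an r of 0.68 to 0.99 with each other, so they are not 4 independent results. These 4 were among 36 miRNAs called higher without D+P replicate 3, and among 15 with 16 added before the log2. No member passed in the authors' normalized values, or without C+P replicate 2, C+P replicate 3 or D+P replicate 2, although 3 and then 4 members had an unadjusted p under 0.05 in limma. In each of these settings 1 of all 128 miRNAs passed, against 17 in the main fit. In the unnormalized values the 4 members were higher by 0.08 to 0.18, while the median miRNA was lower by 0.41.

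**Figure D2:**
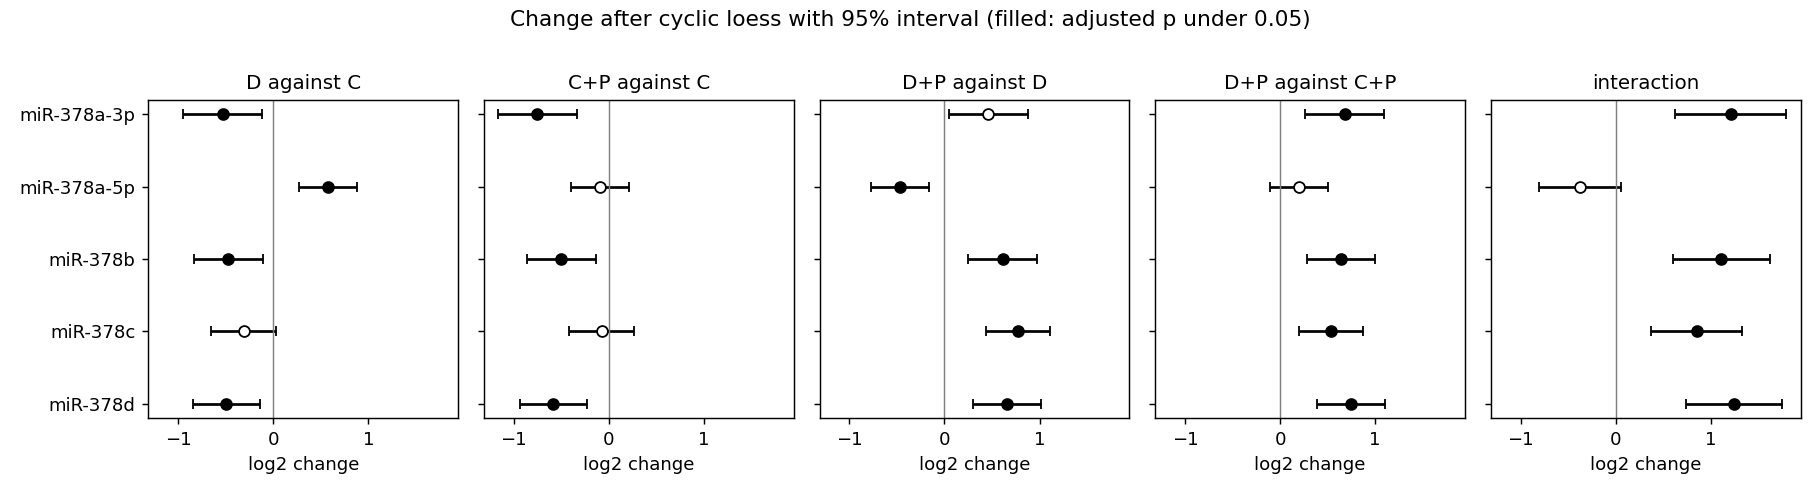
Log2 change of each miR-378 miRNA after cyclic loess (points) with its 95% interval (bars) in the 4 comparisons and the interaction, from limma over 12 arrays; filled points have an adjusted p under the threshold of 0.05. The 4 members other than miR-378a-5p lie left of 0 in D against C and in C+P against C and right of 0 in the other panels, while miR-378a-5p lies on the opposite side from miR-378a-3p in D against C, D+P against D and the interaction; without normalization all positions left of 0 in the first 2 panels moved to the right of 0, and those of the 4 members in the interaction moved to the left.

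Whether the change with diabetes differed between untreated and pargyline-treated hearts was tested by the interaction. Constant differences between slides or array rows cancel in it, but differences in brightness between single groups do not. It sets C and D+P, with summed signals of 27107 to 35028 and 39661 to 58631, against C+P and D, with 57895 to 89040 and 48104 to 61254. The interaction was 1.21 for miR-378a-3p (SE 0.27, adjusted p = 0.00353), 1.11 for miR-378b (SE 0.23, adjusted p = 0.00344), 0.85 for miR-378c (SE 0.22, adjusted p = 0.00593) and 1.24 for miR-378d (SE 0.23, adjusted p = 0.00282). MiR-378a-5p went the other way at -0.38 (95% interval -0.81 to 0.05) and did not pass (adjusted p = 0.111). Thus 4 members passed with a positive interaction, beside 70.3% of all 128 miRNAs, 35.2% with a positive and 35.2% with a negative one, so that an interaction was common on these arrays. Each of these 4 members passed in 21 of 24 other settings and turned sign without normalization. With the mean signal of the array's control features as a covariate, 0 of all 128 miRNAs passed, against 90 in the main fit. The study grouped miR-378d, miR-378b and miR-378a as lower in diabetic hearts, restored by pargyline, and not changed by pargyline in controls. That group was made from these same arrays, so membership in it is not independent evidence of this interaction. The last part of that profile differs from the values here. In C+P against C miR-378a-3p fell by 0.75, miR-378b by 0.50 and miR-378d by 0.58 after normalization.

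Inside the groups, the normalized levels of some members were highest on the dimmest array. In 4 of 4 groups the dimmest array, by summed signal, held the highest normalized level of miR-378d, miR-378b and miR-378a-3p, and the same held in 3 of 4 groups for miR-378c and in 1 of 4 for miR-378a-5p. Levels of miR-378d, miR-378b and miR-378a-3p had an r of 0.93 to 0.99 with each other, so these counts are not independent. The order was counted for the members only, and its share over all 128 miRNAs was not tested. D+P replicate 1, the dimmest D+P array with a summed signal of 39661, had miR-378a-3p at 8.48, while D+P replicate 3, the brightest at 58631, had it at 7.71. With the mean signal of the array's 10 detected control features as a covariate, no member passed in any comparison, and the change of miR-378a-3p in D against C was 0.0025. The unadjusted p was under 0.05 for 4 members in D+P against D, for 2 in D+P against C+P and for 0 in the other comparisons of that fit (limma). This covariate went with the groups, so that fit cannot tell brightness from group, and the part of array brightness in these results was not tested.

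A ratio of signals within an array does not depend on scaling between arrays, and it was used to compare miR-378a-3p with its partner arm and paralogs. The log2 ratio of miR-378a-3p to miR-378a-5p was 3.26, 3.41 and 3.36 in C, 2.76, 2.86 and 2.72 in C+P, 2.26, 2.31 and 2.63 in D, and 3.56, 3.14 and 2.61 in D+P. The C hearts had higher ratios than all C+P and D hearts, and the D+P hearts spread from 2.61 to 3.56. The ratio was lower by 0.94 in D against C (means 2.40 ± 0.20 and 3.34 ± 0.08, SD, n = 3; exact permutation p = 0.1, adjusted p = 0.267) and by 0.56 in C+P against C (2.78 ± 0.07, n = 3; exact permutation p = 0.1). With 3 against 3 arrays a two-sided exact p cannot go below 0.1, and 16 such comparisons were made, so none could pass. Over both slides the difference with diabetes was -0.31 (exact permutation within slides, p = 0.26, adjusted p = 0.52), and D+P and C+P overlapped. The 4 arrays with the highest arm ratio were the 4 arrays with the lowest summed signal, the 3 C arrays and D+P replicate 1. The other arrays did not keep this order. C+P arrays, with summed signals of 57895 to 89040, had ratios of 2.72 to 2.86, and D arrays, with 48104 to 61254, had 2.26 to 2.63. The part of brightness in this ratio was not tested.

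**Figure D3:**
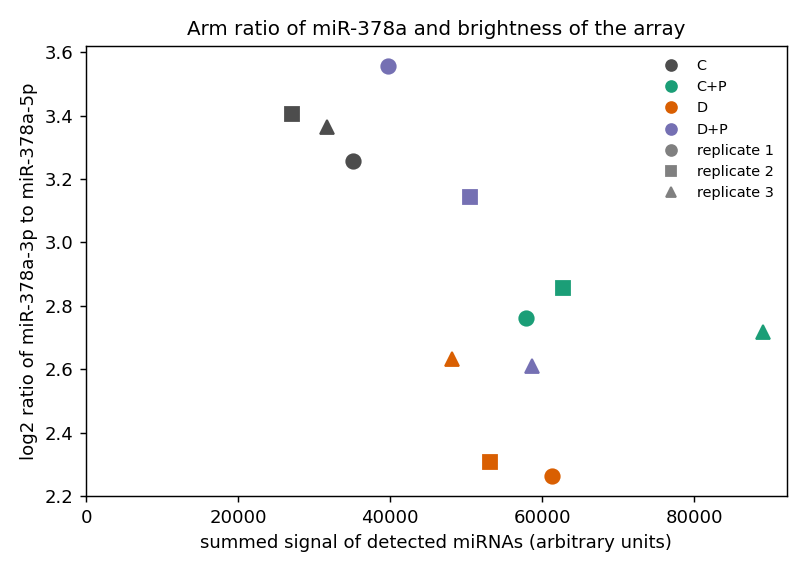
Log2 ratio of miR-378a-3p to miR-378a-5p within an array (vertical) against the summed signal of detected miRNAs on the array (horizontal, arbitrary units), 1 point for each of 12 arrays, coloured by group. The 4 dimmest arrays, 3 of C and 1 of D+P, have ratios of 3.26 to 3.56, and the other 8 arrays lie between 2.26 and 3.14.

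Among the paralogs, miR-378c stood apart from miR-378a-3p in the hearts on pargyline. The log2 ratio of miR-378a-3p to miR-378c was 2.06, 2.15 and 2.16 in C and 2.13, 1.95 and 2.07 in D. It was 1.44, 1.65 and 1.40 in C+P and 1.62, 1.66 and 1.49 in D+P. All 6 hearts on pargyline were thus below all 6 without it, and the ratio was lower by 0.63 in C+P against C and by 0.46 in D+P against D (exact permutation p = 0.1 each). Over both diabetes states the difference with pargyline was -0.54 (exact two-sided permutation within diabetes states, p = 0.005, the smallest these arrays can give, adjusted p = 0.04 over 8 tests), a grouping that was added after the data were seen. In the authors' normalized values it was -0.40 (p = 0.055 by the same exact permutation, adjusted p = 0.147), made up of -0.71 among the non-diabetic hearts and -0.097 among the diabetic ones. Pargyline and slide cannot be told apart here. The ratios to miR-378b and miR-378d were lower on pargyline by 0.21 (exact permutation p = 0.02, adjusted p = 0.08) and by 0.19 (exact permutation p = 0.03, adjusted p = 0.08). With diabetes the ratio to miR-378c differed by -0.07 in D against C and by 0.10 in D+P against C+P, with overlapping arrays in both (-0.30 and 0.31 in the authors' values).

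**Figure D4:**
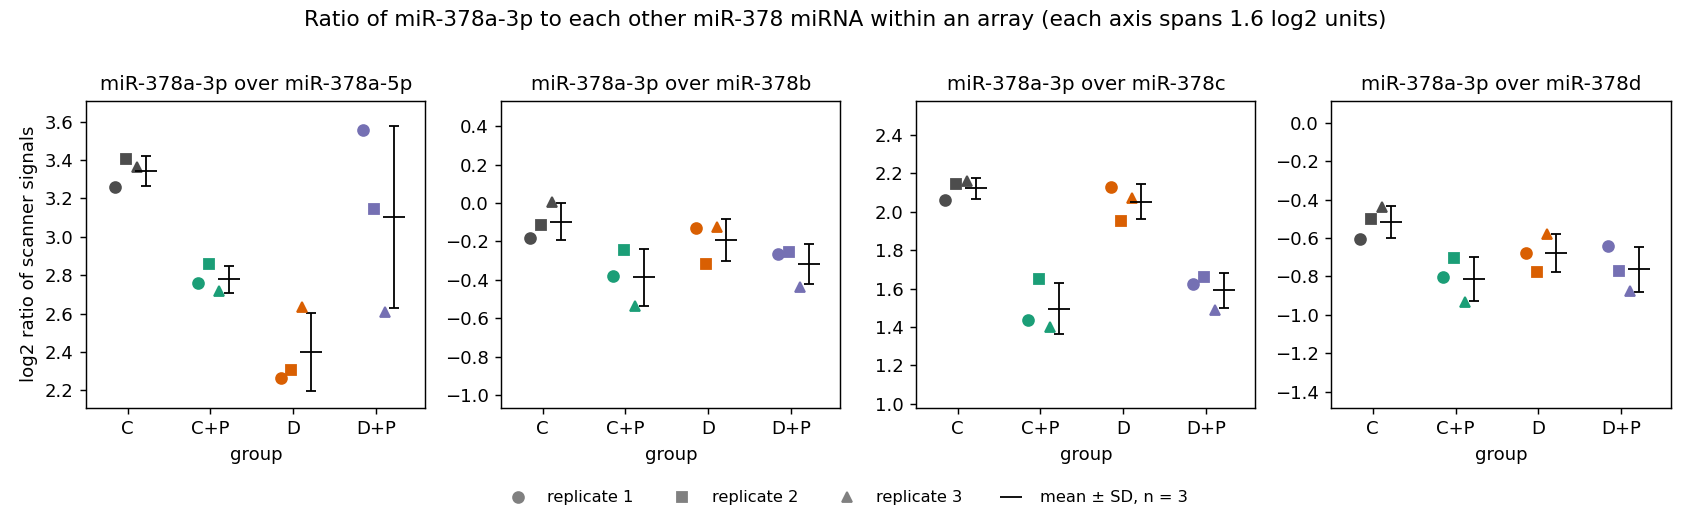
Log2 ratio of the scanner signal of miR-378a-3p to that of each other miR-378 miRNA within each of the 12 arrays, by group, with the mean and SD of 3 arrays; each vertical axis spans 1.6 log2 units. The ratio to miR-378c is at 1.40 to 1.66 in all hearts on pargyline and at 1.95 to 2.16 in all others, and the ratio to miR-378a-5p spreads most in D+P.

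Over the 12 arrays, as a description of arrays that share groups and slides, normalized levels of miR-378b and miR-378d had a Pearson r of 0.99. MiR-378a-3p followed miR-378d (r = 0.95) and miR-378b (r = 0.93) more closely than miR-378c (r = 0.68), and had an r of -0.24 with miR-378a-5p. In the scanner signals, which carry the common brightness, the r of both miR-378a arms was 0.71. The other miRNAs most like miR-378a-3p in normalized level were miR-30a-5p (r = 0.98), miR-30d-5p (r = 0.94), miR-8110 (r = 0.93), miR-6366 (r = 0.93) and miR-3960 (r = 0.92). This order depended on the normalization. MiR-6366 was at rank 32 (r = 0.76) after scaling to the 75th percentile of detected miRNAs and had no r after quantile normalization, where miR-30d-5p was at rank 11 and miR-3960 at rank 18. MiR-30a-5p fell by 0.52 in D against C (limma, adjusted p = 0.0296) and rose by 0.63 in D+P against C+P (adjusted p = 0.0418), close to the values of miR-378a-3p. It was picked by its r over these same arrays, so this likeness follows from the choice and is not further evidence.

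Other miRNAs that, like miR-378a, lie in introns of genes of metabolism or muscle were taken as a list for comparison. Of 7 listed, 4 were detected on all arrays, and miR-33-5p, miR-33-3p and miR-208b-3p were undetected on all of them. In D against C 1 of the 4 rose, miR-107-3p of a pantothenate kinase gene by 0.75 (adjusted p = 0.00967), and 1 fell, miR-208a-3p of the α-myosin heavy chain gene by 0.78 (adjusted p = 0.00730), with a median change of 0.23 beside 0.02 over all 128 miRNAs. These 2 of 4 stand beside 50% of all miRNAs called. In D+P against C+P 1 of the 4 passed, miR-499-5p of the Myh7b gene, which fell by 0.79 (adjusted p = 0.0180), beside 13.3% of all miRNAs called. The interaction was positive for miR-208a-3p, as for the 4 miR-378 members, and negative for the other 3 of the list, all past the threshold, as were 70.3% of all miRNAs.

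MiRNAs outside the family that are known for acting on mitochondrial, lipid or glucose metabolism were a further list, with 13 of 19 detected on all arrays. In D against C 6 rose and 2 fell, where 24.2% of all miRNAs were called higher and 25.8% lower (median change 0.36, beside 0.02 over all miRNAs). In C+P against C 5 rose and 1 fell, where 18% of all miRNAs were called higher and 18.8% lower (median 0.33, beside -0.04). MiR-27a-3p, which acts on lipid metabolism, rose by 0.99 in D against C and by 0.76 in C+P against C. MiR-22-3p, a muscle-enriched miRNA, fell by 0.97 in D against C and by 1.03 in C+P against C. In D+P against D 1 rose and 3 fell, where 53.9% of all miRNAs were called. In D+P against C+P, where 13.3% of all miRNAs were called, none of the 13 passed the adjusted threshold in limma, while 5 had an unadjusted p under 0.05. The miR-378 family made up 2.12 to 2.42% of the summed signal of a C heart, 1.50 to 1.65% for C+P, 1.65 to 1.92% for D and 2.21 to 2.73% for D+P, while the 5 heart muscle markers made up 12.6 to 13.5%, 16.8 to 19.8%, 16.2 to 19.9% and 7.92 to 17.1%. The share of the family was thus lowest in C+P and D, where the share of the heart muscle markers was at least 16.2% in every heart, and the part of this in the changes of the family was not tested.

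**Figure D5:**
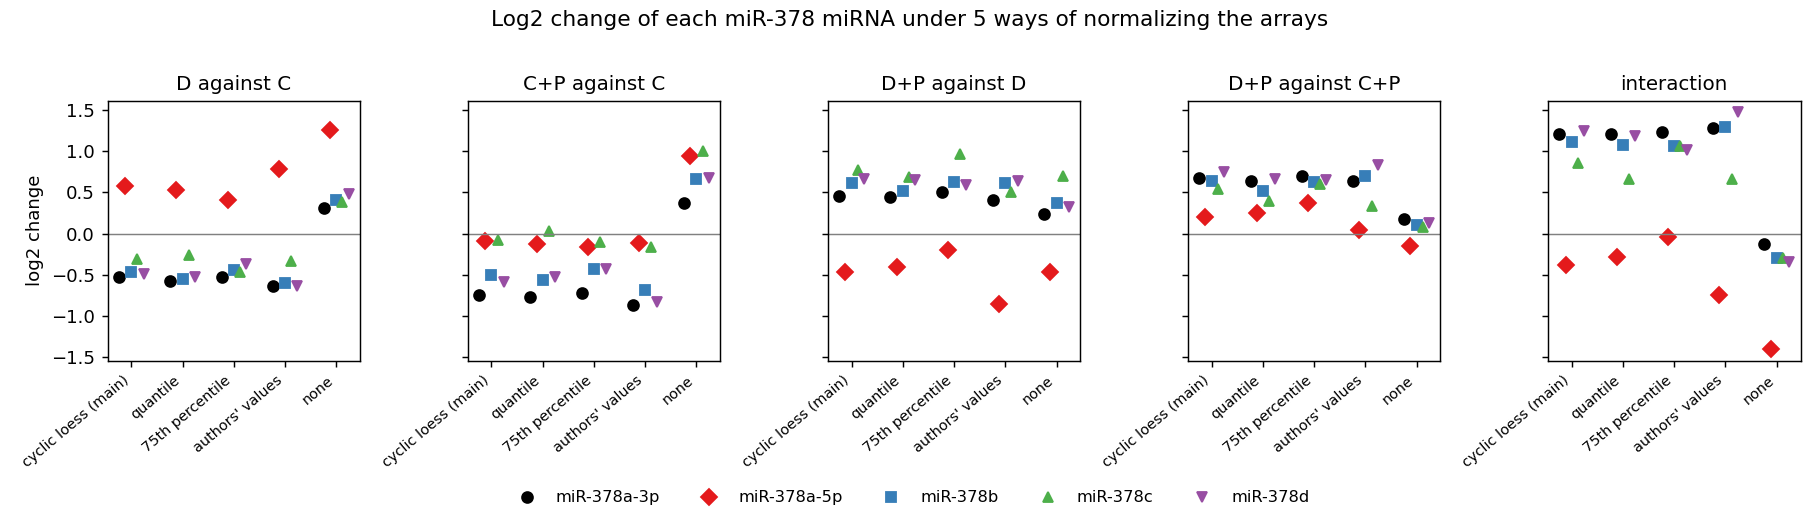
Log2 change of each miR-378 miRNA (symbols) in the 4 comparisons and the interaction with arrays normalized by cyclic loess, by quantiles or to the 75th percentile of detected miRNAs, with the authors' normalized values and with no normalization. Without normalization the changes of miR-378a-3p, miR-378b, miR-378c and miR-378d in D against C lie at 0.31 to 0.48, above 0, and in the normalized sets of values they lie below 0, while miR-378a-5p lies above 0 throughout.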

How the data were processed

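MiRNAs were measured on 12 Agilent 1-colour arrays, 1 for each heart, with 3 hearts in each of the groups C, C+P, D and D+P as titled in the sample records. For each array the authors deposited the total gene signal of the scanner software, an intensity, and a detection flag for 1881 miRNAs; the value 0.1 stands for a miRNA that was not detected, and arrays were not yet normalized against each other. A second table deposited by the authors, with the intensity of 209 miRNAs after a filter on detection and cyclic loess, served as an alternative only. The methods give less total RNA per labelling than the sample records do.

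The 128 miRNAs detected on all 12 arrays, a filter the methods state, were put on the log2 scale without a pseudocount. Cyclic loess with a span of 0.7 and 3 iterations, from limma 3.58.1 (R 4.3.3), made the arrays comparable. One fit of the 4 group means to all 12 arrays (lmFit, eBayes) gave 4 comparisons and the interaction of diabetes with pargyline, and two-sided p-values were adjusted over the 128 miRNAs (Benjamini-Hochberg) and called under 0.05. Ratios of 2 members within an array were compared by two-sided exact permutation tests. Alternatives covered normalization, filter, pseudocount, source of values, variance model, test, replicate block, control features as covariate, and each array left out in turn. The fit was tested on simulated data with independent noise and no differences in brightness between arrays. That test does not cover such differences. The number of arrays limits the precision.

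Members and lists were chosen with earlier results of these data known. The miRNAs named are the members, the 5 others with the highest r with miR-378a-3p over the arrays, and the lists of intronic, metabolic and cell type marker miRNAs. Mature sequences are from RefSeq (GRCm38.p6), with 3 of 5 members matched.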

Additional observations from a re-analysis of the deposited data

Results flagged for a closer look

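The change with diabetes differed between untreated and pargyline-treated hearts for 4 of the 5 members, by the interaction term of the limma fit. The difference was 1.21 on the log2 scale for miR-378a-3p, 1.11 for miR-378b, 0.85 for miR-378c and 1.24 for miR-378d, each as the change in D against C subtracted from that in D+P against C+P. Of all 128 miRNAs 70.3% passed this test. Without normalization these values were -0.13, -0.30, -0.30 and -0.35, beside a median of -1.17 over all 128 miRNAs. With any one array left out, the interaction of miR-378a-3p was between 1.04 and 1.40. With the control features as a covariate 0 of all 128 interactions passed, and so none of a member (limma, 0 members with an unadjusted p under 0.05). The values in that fit were 0.32 for miR-378a-3p, 0.46 for miR-378b, 0.29 for miR-378c and 0.58 for miR-378d. The covariate differed between the groups, so that fit cannot tell brightness from group.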

How the results depend on the processing

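Members past the threshold numbered 4 in D against C, 3 in C+P against C, and 4 each in D+P against D, in D+P against C+P and in the interaction, and with each array left out in turn these became 1 to 5, 0 to 3, 1 to 5, 0 to 4 and 4 to 5. No change of a member turned sign when an array was left out. Counts over all miRNAs, 64, 47, 69, 17 and 90, became 33 to 88, 3 to 79, 13 to 89, 1 to 73 and 76 to 96. The count of members was 0 in D+P against C+P without C+P replicate 2, C+P replicate 3 or D+P replicate 2, 1 without C replicate 1, C replicate 2 or D+P replicate 1, and 2 without C replicate 3, C+P replicate 1 or D replicate 2. Of all 128 miRNAs 1 passed in each setting with 0 members, and 7 to 10 passed in those with 1 or 2. With both D+P replicate 1 and C+P replicate 3 left out, an alternative added after seeing the data, 2 members passed in D+P against D and 0 in D+P against C+P (4 unadjusted, that is, with p under 0.05 before adjustment). Of all 128 miRNAs 17 and 1 passed in these comparisons.

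For D against C 0 members passed after scaling to the 75th percentile of the detected miRNAs (4 unadjusted, limma), without a filter on detection (4 unadjusted), with Holm adjustment of the methods' t-test (3 unadjusted) and with control features as a covariate (0 unadjusted), 1 without normalization and 1 by the methods' t-test after Benjamini-Hochberg adjustment. Over all miRNAs 56 of 128, 5 of 1881, 2 of 128, 1 of 128, 60 of 128 and 23 of 128 passed, in that order. In C+P against C 1 passed after that scaling, and 0 without a filter (3 unadjusted), with Holm adjustment (3 unadjusted) or with the covariate (0 unadjusted). Over all miRNAs 31 of 128, 4 of 1881, 2 of 128 and 2 of 128 passed, in that order. Without normalization 4 members passed as higher, opposite to the falls after normalization, beside 96 of 128 miRNAs. In D+P against D 0 passed without normalization (1 unadjusted), without a filter (5), in the authors' values (4), with only the arrays compared (4), by the methods' t-test under Benjamini-Hochberg or Holm adjustment (1) and with the covariate (4). Over all miRNAs 8 of 128 passed without normalization, 3 of 128 in the authors' values and 0 in the other settings named. In D+P against C+P 1 passed after quantile normalization or with miRNAs detected in at least 1 whole group, and 0 after the 75th percentile scaling (5 unadjusted), without normalization (0), without a filter (4), in the authors' values (3), with only the arrays compared (4), by the methods' t-test under either adjustment (2) and with the covariate (2). Over all miRNAs 7 of 128, 12 of 209, 3 of 128, 2 of 128, 0 of 1881, 1 of 128, 1 of 128, 0 of 128 and 1 of 128 passed, in that order. In the interaction 1 passed without normalization, with a negative value, and 0 without a filter (5) or with the covariate (0). Over all miRNAs 70 of 128, 2 of 1881 and 0 of 128 passed, in that order. The 75th percentile of all miRNAs was the value of an undetected miRNA on every array, so scaling to it equals no normalization.

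Without normalization, in D against C, miR-378a-3p was 0.31, miR-378b 0.41, miR-378c 0.38 and miR-378d 0.48. In C+P against C miR-378a-3p was 0.37, miR-378a-5p 0.94, miR-378b 0.66, miR-378c 1.00 and miR-378d 0.67. In D+P against C+P miR-378a-5p was -0.15, and the interaction was -0.13 for miR-378a-3p, -0.30 for miR-378b, -0.30 for miR-378c and -0.35 for miR-378d. With the covariate, D against C was 0.0025 for miR-378a-3p and 0.026 for miR-378c, and C+P against C was 0.30 for miR-378c, which was 0.032 after quantile normalization. The cause of these turns was not tested. With identical settings counted once, of 670 values of members under other settings 460 kept direction and side of the threshold, 182 lost the call, 10 gained one and 18 turned sign.

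The replicate numbers did not pair the arrays, since 4 of 18 pairs of arrays with the same number had an r over 0.1 (range -0.37 to 0.49). In 3 of these 18 pairs the first array correlated best with its own number among the arrays of the other group. With the replicate number as a block 2 members passed in D against C, 2 in C+P against C, 4 in D+P against D, 1 in D+P against C+P and 4 in the interaction. Over all miRNAs the counts called with this block were 59, 35, 58, 8 and 86 in that order, against 64, 47, 69, 17 and 90 without it.

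The split of all called miRNAs also moved with the scaling. In D against C 31 of 64 calls were higher, and 18 of 56 after the 75th percentile scaling, 14 of 47 with the authors' values and 57 of 60 without normalization. The corresponding counts were 23 of 47, 18 of 31, 5 of 29 and 96 of 96 in C+P against C, 34 of 69, 44 of 53, 0 of 3 and 8 of 8 in D+P against D, and 7 of 17, 1 of 3, 0 of 1 and 0 of 2 in D+P against C+P. After quantile normalization 2 of 7 calls in D+P against C+P were higher. In the interaction 45 of 90 calls were positive, against 47 of 76 after that scaling and 3 of 70 without normalization.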
